A study of Mus musculus with 12 samples.

Results

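A set of 42 mouse genes for the presynaptic machinery that stores, docks, releases and recovers synaptic vesicles was followed in adherent neural stem (ANS) cells. Members were picked by gene symbol, and all 42 symbols were found among the 22609 genes of the count tables. ANS cells are neural progenitors grown attached to the dish, taken here from mouse embryos at E14.5, and poly(A) RNA was sequenced in 12 libraries. The 3 libraries at T0 came from proliferating cells in growth medium with 20 ng/ml FGF2 and 20 ng/ml EGF. The 3 libraries at T1 came 2 days after the change to medium D1, which has 10 ng/ml FGF and 2 ng/ml EGF. The 4 libraries at T2 came 2 days after the later change to medium B, and the 2 libraries at T3 came 10 days after it. Medium B contains 10 ng/ml FGF2 and 20 ng/ml BDNF, and no EGF is listed for it. The labels list no gene alteration. For medium B the cells were also detached again and plated at another density on laminin, so T2 and T3 differ from T0 and T1 in surface and replating as well as in medium and time. The days given come from the labels of the samples, whereas the growth protocol gives 3 days in each medium. The protocol is meant to give GABAergic neurons, which release the inhibitory transmitter GABA.

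A nerve terminal fills small vesicles with transmitter and tethers them, through Rab3 proteins and their effectors, to an active zone built on large scaffold proteins. SNARE proteins on the vesicle (Vamp) and on the cell membrane (syntaxin, SNAP-25) then zip together. Complexins hold the zipped complex ready until a calcium sensor of the synaptotagmin family triggers fusion, NSF and its SNAP adaptors take the used complexes apart, and clathrin adaptors, dynamins and synaptojanin recover the membrane.

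Levels are given as CPM, the reads of a gene scaled to the size of its library with factors set over the 12 libraries. A member is called higher or lower where the adjusted p of edgeR's quasi-likelihood test, fitted on all genes, was under 0.05. Fold changes are on the log2 scale with their standard error (SE). Genes received 8910724 to 16631614 counted reads per library. T0 replicate 3 stood apart from the other 2 T0 libraries: its genes differed from theirs by a median of 0.458 and 0.452 on the log2 scale, against 0.0894 between replicates 1 and 2. It was the lowest T0 library for 25 of the 30 members with more than 3 counts in each T0 library and the highest for 4. The 42 members summed to 2324, 2322 and 1273 CPM in T0 replicates 1, 2 and 3. They summed to between 2640 and 2822 CPM at T1, between 2645 and 2886 CPM at T2, and to 2827 and 2009 CPM in T3 replicates 1 and 4. In bulk RNA, fewer cells of a type and less RNA per cell cannot be told apart.

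Part of the release genes rose as cells left the growth medium, and the gains were unequal between members. At T1, 15 of 33 members tested were higher than at T0 and 0 were lower, where 15.1% of all genes tested were higher and 16.8% lower. At T2, 20 of 35 were higher and 0 lower, against a background of 21.4% and 21.8%. At T3, 10 of 36 were higher and 0 lower, against 3.31% and 1.41%. The median log2 fold change of the members was 0.55, 0.78 and 0.80 at T1, T2 and T3, and that of all genes tested was -0.01, 0.00 and -0.01. Counts of 0 lower members are from edgeR. At an unadjusted p under 0.05 1 member was lower in each comparison, Sv2a at T1 and Sv2c at T2 and T3, and DESeq2 called the same member lower each time. Over all genes DESeq2 called 2475, 3045 and 939 lower at T1, T2 and T3. These comparisons share the T0 libraries. Calls were made in all 3 for 7 members (Cplx1, Rab3c, Pclo, Erc2, Ppfia2, Snap91 and Dnm3), and at T1 and T2 but not T3 for 8 (Syn2, Syn3, Snap25, Vamp2, Napb, Bsn, Ppfia3 and Synj1). Syp, Rph3a and Rims1 were called at T2 and T3, and Rims2 and Unc13b at T2. The other 22 members were not called against T0, and 6 of them had too few reads to be tested in any comparison.

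**Figure D1:**
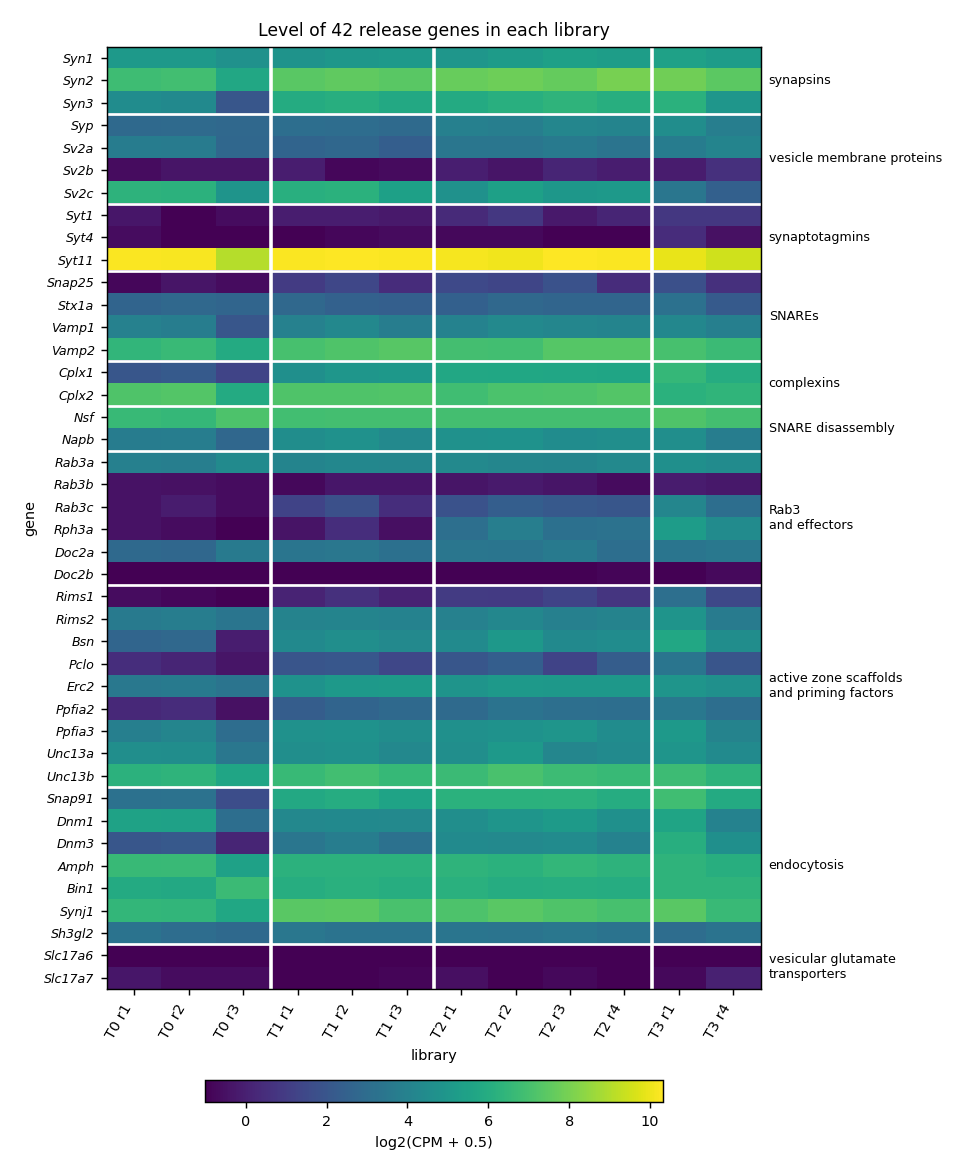
Level of each of the 42 release genes (rows, grouped by role) in each of the 12 libraries (columns), as log2 of CPM plus 0.5. Syt11 is the brightest row in all libraries, Cplx1, Snap91, Rph3a and Rab3c brighten from left to right, and T0 r3 is darker than T0 r1 and T0 r2 for 25 of 30 members above 3 counts.

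The number of calls depended on single libraries. Without T1 replicate 1, 2 or 3, with 2 libraries left for T1, the calls at T1 fell to 6, 6 and 8. Over all genes the higher calls fell from 1871 to 838, 810 and 1062. Of the 15 calls at T1, 5 held in each fit that left out a single library (Cplx1, Erc2, Ppfia2, Snap25 and Snap91), as did 19 of the 20 at T2, all but Rims2. Without T0 replicate 3 they were 20 higher and 3 lower at T1, the latter being Sv2a, Dnm1 and Amph. At T2 they were 23 higher and 3 lower, the latter being Sv2c, Dnm1 and Amph. Over all genes those fits gave 3162 higher and 3128 lower at T1, and 3391 and 3215 at T2. With all libraries the numbers were 1871 and 2078 at T1, and 2704 and 2751 at T2. For T3 against T0, leaving out T0 replicate 1 gave 2 higher calls, leaving out replicate 2 gave 1, and leaving out replicate 3 gave 15. Over all genes those fits gave 14, 13 and 1250 higher calls, against 421 with all libraries. Leaving out either T3 library left a lone library at T3, and the T3 calls did not hold there.

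The proteins that hold vesicles in reserve, the synapsins, differed among themselves. Syn2 was at 112, 116 and 54.6 CPM at T0, at 171, 186 and 169 at T1, between 196 and 257 at T2 (median 214), and at 234 and 177 at T3. No library of T1, T2 or T3 reached down to T0. The log2 fold change was 0.89 (SE 0.27, adjusted p = 0.044) at T1 and 1.25 (SE 0.25, adjusted p = 0.0049) at T2. Syn3 went from 22.0, 20.4 and 3.60 CPM at T0 to 61.9, 67.3 and 55.9 CPM at T1, between 59.4 and 80.5 CPM at T2, and 74.0 and 30.0 CPM at T3. The T1 difference was a log2 fold change of 2.01 (SE 0.56, adjusted p = 0.035). Syn1, the synapsin of mature terminals, overlapped with T0 at T1 and T2, with 34.3, 34.7 and 26.2 CPM at T0 and 27.8, 31.3 and 34.1 CPM at T1. Its 2 T3 libraries, at 43.7 and 37.8 CPM, lay above T0 but were not called.

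Vesicle membrane proteins moved apart from each other. Syp, which encodes the abundant vesicle protein synaptophysin, stayed near its T0 level (6.75, 6.98 and 6.56 CPM) at T1, with 8.02, 7.70 and 6.95 CPM. It rose in medium B to 14.9, 13.7, 17.8 and 16.8 CPM at T2, a log2 fold change of 1.24 against T0 (SE 0.16, adjusted p = 0.00055). Sv2c, one of the SV2 glycoproteins, through which botulinum toxin enters neurons, went the other way. It was at 78.3, 76.9 and 28.7 CPM at T0, at 69.1, 72.9 and 42.6 CPM at T1, at 25.7, 42.9, 31.2 and 33.7 CPM at T2, and at 10.4 and 4.95 CPM at T3. The T3 libraries lay below all others. Against T0 the log2 fold change at T3 was -2.97 (SE 0.59), which missed the threshold (adjusted p = 0.05), and without T0 replicate 3 it was -3.30 and passed it (adjusted p = 0.01). Sv2a had 12.8, 12.5 and 6.42 CPM at T0, and in T1 libraries 5.78, 6.43 and 4.63 CPM. Its difference missed the threshold with T0 replicate 3 (adjusted p = 0.058) and passed it without (log2 fold change -1.18, adjusted p = 0.00056). Sv2b was below 1 CPM in all libraries.

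Of the synaptotagmins, the calcium sensor of fast release was almost absent and a relative that does not sense calcium dominated. Syt11, one of the family that lacks calcium binding, had the highest level of the 42 members, at 1212, 1184 and 528 CPM at T0, between 1190 and 1234 CPM at T1, between 1076 and 1265 CPM at T2, and at 968 and 710 CPM at T3. It was not called against T0. Syt1, the sensor of fast release, had at most 0.300 CPM at T0 and 1.30 CPM in any library. Syt4 had at most 0.837 CPM.

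Of the 4 SNARE proteins listed, 2 were called higher at T1 and T2, where 15.1% and 21.4% of all genes tested were higher. Vamp2, the vesicle SNARE of most forebrain synapses, was at 86.5, 99.8 and 59.7 CPM at T0, then at 129, 144 and 164 CPM at T1, at 121, 117, 160 and 160 CPM at T2, and at 129 and 104 CPM at T3. The later groups did not overlap with T0, and the log2 fold change was 0.83 (SE 0.20, adjusted p = 0.022) at T1 and 0.78 (SE 0.20, adjusted p = 0.014) at T2. Snap25, the neuronal membrane SNARE, had 1, 4 and 2 reads at T0 and 17, 29 and 14 at T1, which is 0.854 to 2.17 CPM. Its log2 fold change was 3.08 (SE 0.59, adjusted p = 0.0095) at T1 and 3.55 (SE 0.62, adjusted p = 0.0025) at T2. Its highest level in any library was 3.09 CPM. Stx1a, the syntaxin that pairs with both, was between 4.09 and 8.79 CPM in the 12 libraries and was not called. Vamp1 was at 15.2, 13.5 and 3.60 CPM at T0 and between 13.3 and 19.6 CPM at T1 and T2, with no call.

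**Figure D2:**
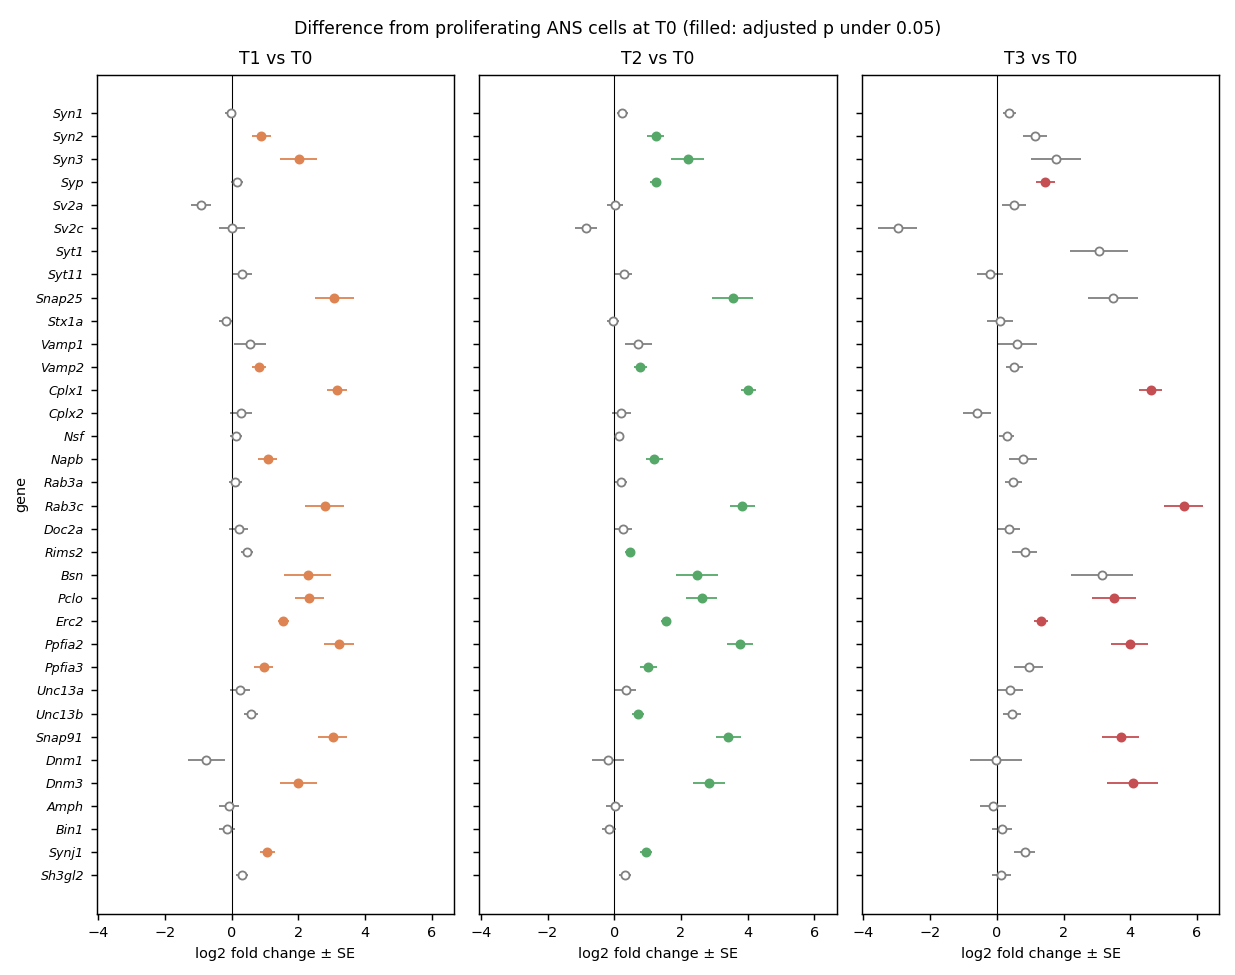
Log2 fold change against T0 (horizontal axis, bars ± SE) of each member tested at T1, T2 and T3, with filled points for an adjusted p under 0.05. Filled points lie to the right of 0 in all 3 panels. Rph3a and Rims1 are not drawn, since their T0 libraries held at most 3 reads.

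The complexins, the small proteins that clamp the zipped SNARE complex, changed places. Cplx1 (chr5:108947573-108979043 on mm9, minus strand) was at 3.60, 4.12 and 1.98 CPM at T0. It rose to 24.4, 30.6 and 31.9 CPM at T1, to 54.7, 52.1, 51.1 and 49.9 CPM at T2, and to 91.7 and 64.4 CPM at T3. Each group lay above the one before it with no overlap. The log2 fold changes against T0 were 3.16 (SE 0.29, adjusted p = 0.00066), 4.02 (SE 0.24, adjusted p = 4.7e-05) and 4.61 (SE 0.36, adjusted p = 0.014). Cplx2 (chr13:54472713-54485278, plus strand), which is expressed in many forebrain neurons, was at 145, 157 and 59.7 CPM at T0, between 144 and 148 CPM at T1, and between 116 and 156 CPM at T2. It then fell to 73.1 and 84.1 CPM at T3, a log2 fold change of -0.81 against T2 (SE 0.14, adjusted p = 0.044). For each read of Cplx2 there were 0.0249 to 0.0331 reads of Cplx1 at T0, then 0.169 to 0.215 at T1 and 0.320 to 0.473 at T2, with 0.766 and 1.25 in the T3 libraries. Per length, the order was reversed by T3: Cplx1 had a mean of 24.2 FPKM (SD 8.25, n = 2) and Cplx2 of 9.97 FPKM (SD 0.0371, n = 2).

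Of the pair that takes SNARE complexes apart, the adaptor was called with all libraries and the enzyme was not. Nsf, the ATPase, was at 98.3, 91.9 and 140 CPM at T0 and between 119 and 146 CPM later, with no call. Without T0 replicate 3 it was higher by 0.34 at T1 (adjusted p = 0.0063) and by 0.37 at T2 (adjusted p = 0.0027). Napb, the brain-enriched SNAP adaptor, rose from 12.9, 13.3 and 6.28 CPM at T0 to 23.1, 26.0 and 19.5 CPM at T1, with 23.3 and 13.2 CPM at T3 (T1 log2 fold change 1.07, SE 0.30, adjusted p = 0.032). The T1 call was lost when any single T1 library was left out (adjusted p between 0.068 and 0.12). At T2 its call held in each fit that left out a single library.

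The Rab3 proteins and their effectors included the members that rose again between T2 and T3. Rph3a, which encodes the Rab3 effector rabphilin (chr5:121390511-121459527, minus strand), had 3, 2 and 0 reads at T0 and 3, 12 and 3 reads at T1. It was at 8.31, 13.8, 8.46 and 9.22 CPM at T2 and at 37.0 and 21.6 CPM at T3. The level at T2 was at least 46.2-fold higher than 3 reads in each T0 library would give (adjusted p = 9.8e-05), and at T3 at least 136-fold higher (adjusted p = 0.014). Rab3c was at 0.225, 0.419 and 0.141 CPM at T0, at 1.90, 2.84 and 0.915 CPM at T1, between 3.15 and 4.72 CPM at T2, and at 18 and 7.96 CPM at T3. The groups followed each other without overlap, with log2 fold changes of 2.78 (SE 0.60, adjusted p = 0.014), 3.84 (SE 0.38, adjusted p = 0.00017) and 5.59 (SE 0.59, adjusted p = 0.017) against T0. Rab3a, the main Rab3 of adult synapses, was between 13.7 and 24.1 CPM in the 12 libraries and was not called. Without T0 replicate 3 it was higher by 0.33 at T1 (adjusted p = 0.043), 0.41 at T2 (adjusted p = 0.017) and 0.71 at T3 (adjusted p = 0.04). Rab3b had at most 0.419 CPM and Doc2b, a calcium-binding protein, had at most 1 read in a library. Doc2a was at 6.42 to 11.8 CPM in the counts but at most 0.177 FPKM on average in any group of the FPKM table, so its level is uncertain.

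Of the 9 active zone members, the largest of these role groups, 5 of 8 tested were higher at T1 and 8 of 9 at T2, against 15.1% and 21.4% of all genes tested. Bsn and Pclo encode the giant scaffolds bassoon and piccolo. Bsn went from 6.0, 6.56 and 0.423 CPM at T0 to 20.3, 23.4 and 19.5 CPM at T1 (log2 fold change 2.28, SE 0.71, adjusted p = 0.047), and it lost the call when any library but T0 replicate 3 was left out. Pclo went from 0.900, 0.628 and 0.282 CPM to 3.45, 3.66 and 2.13 CPM at T1 (log2 fold change 2.33, SE 0.45, adjusted p = 0.0094). Erc2, a scaffold that binds RIM proteins, had a narrow spread. It was at 10.9, 12.1 and 9.80 CPM at T0, at 26.5, 34.7 and 35.1 CPM at T1, between 28.8 and 33.5 CPM at T2, and at 29.1 and 24.8 CPM at T3, with a log2 fold change of 1.55 both at T1 (SE 0.17, adjusted p = 0.0013) and at T2 (SE 0.13, adjusted p = 0.00011).

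Of the liprins, adaptors that assemble active zones, Ppfia2 rose most in fold. It was at 0.750, 0.837 and 0.212 CPM at T0, at 4.48, 5.75 and 6.83 CPM at T1, and at 10.9 and 8.07 CPM at T3, with log2 fold changes of 3.23 (SE 0.45, adjusted p = 0.0028) at T1 and 3.98 (SE 0.55, adjusted p = 0.025) at T3. Ppfia3 went from 14.0, 17.0 and 7.62 CPM at T0 to 25.5, 27.0 and 23.1 CPM at T1 (log2 fold change 0.96, SE 0.28, adjusted p = 0.04). Rims1, which tethers vesicles to calcium channels, had 2, 1 and 0 reads at T0, 7, 13 and 9 at T1, 15, 15, 21 and 19 at T2, and 99 and 21 at T3. Too few reads at T1 kept it out of that test, and it was at least 6.85-fold higher at T2 (adjusted p = 0.00089) and at least 24.5-fold higher at T3 (adjusted p = 0.032) than 3 reads a library at T0 would give. The 2 T3 libraries differed widely in this gene.

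The other priming factors had smaller fold changes. Rims2 was at 11.8, 13.4 and 9.87 CPM at T0 and between 14.6 and 18.1 CPM at T2 (log2 fold change 0.48, SE 0.16, adjusted p = 0.041), a call lost without T0 replicate 1 or any T2 library (adjusted p between 0.055 and 0.095). Unc13b, a Munc13 protein that opens syntaxin for assembly, was at 75.4, 80.8 and 49.2 CPM at T0 and between 98.7 and 134 CPM at T2 (log2 fold change 0.71, SE 0.19, adjusted p = 0.016). Its relative Unc13a was at 23.3, 23.1 and 10.5 CPM at T0 and between 17.7 and 33.1 CPM afterwards, and was not called.

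**Figure D3:**
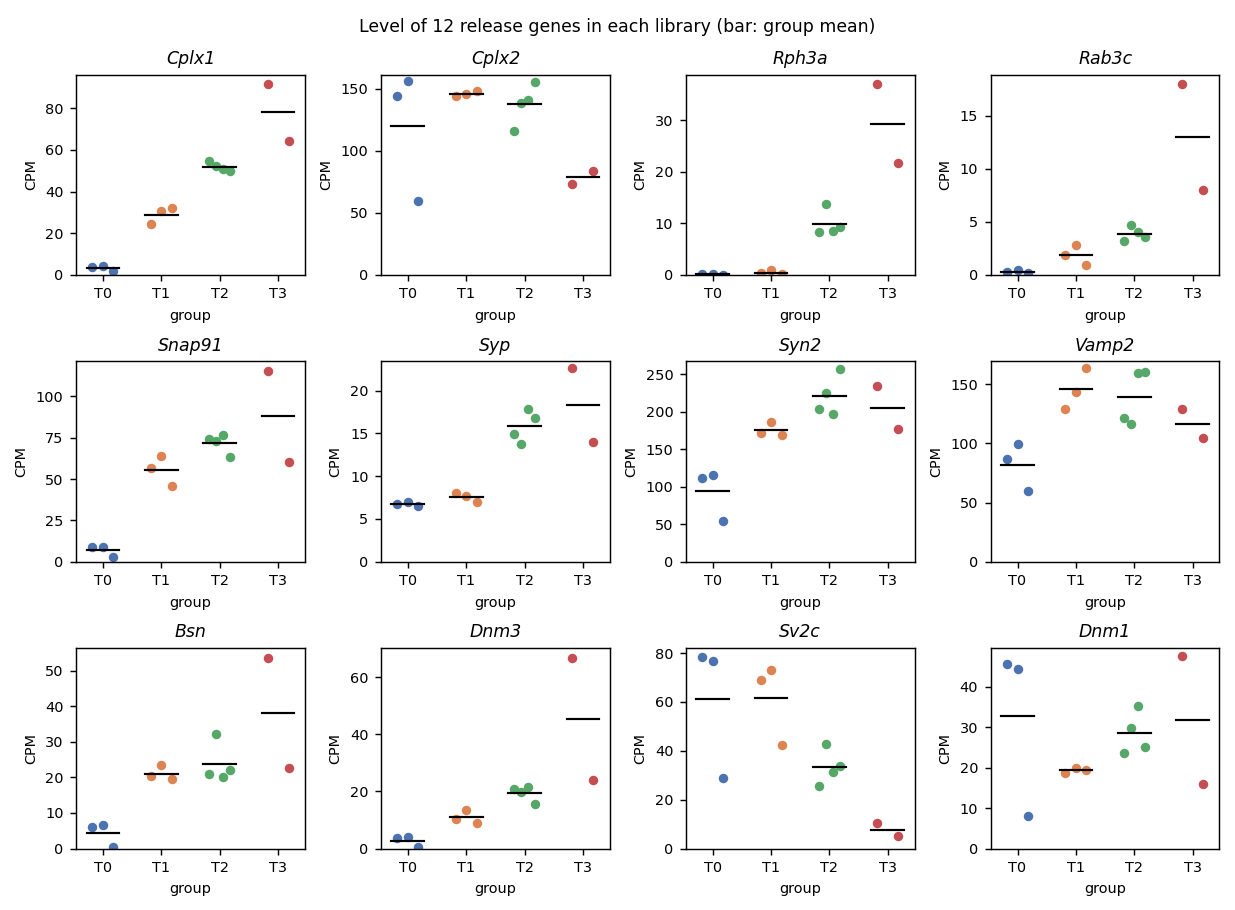
CPM of 12 members in each library (points) with the group mean (bar), on axes that start at 0. Cplx1 and Rab3c climb from T0 to T3 without overlap between successive groups, Rph3a and Syp rise from T2, Sv2c falls, and Dnm1 differs within T0 from 8.11 to 45.5 CPM.

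In the recovery of membrane, 3 of 7 members were called higher at T1 and T2, against 15.1% and 21.4% of all genes tested. Snap91, the neuronal clathrin adaptor AP180 (chr9:86659981-86775489, minus strand), was at 8.70, 9.0 and 2.68 CPM at T0, at 56.6, 63.7 and 46.1 CPM at T1, between 63.3 and 76.5 CPM at T2, and at 116 and 60.6 CPM at T3. No later library came near T0, and the log2 fold changes were 3.02 (SE 0.42, adjusted p = 0.0029), 3.42 (SE 0.37, adjusted p = 0.00024) and 3.71 (SE 0.56, adjusted p = 0.03). Synj1, which encodes a synaptojanin, went from 87.9, 86.7 and 53.3 CPM at T0 to 169, 177 and 135 CPM at T1, and was at 168 and 101 CPM at T3 (T1 log2 fold change 1.07, SE 0.22, adjusted p = 0.011).

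The dynamins, which cut the vesicle from the membrane, split. Dnm3 rose from 3.60, 3.91 and 0.635 CPM at T0 to 10.4, 13.5 and 8.84 CPM at T1 and to 66.7 and 24.0 CPM at T3, with log2 fold changes of 2.00 (SE 0.56, adjusted p = 0.034) and 4.08 (SE 0.76, adjusted p = 0.045). The T1 call was lost without T0 replicate 1 or any single T1 library (adjusted p between 0.052 and 0.12). Without T3 replicate 1 the T3 difference was 3.16 (adjusted p = 0.33). Dnm1, the main dynamin of adult synapses, was at 45.5, 44.3 and 8.11 CPM at T0, with 18.6, 20.0 and 19.5 CPM at T1. With all 3 T0 libraries it was not called, and without T0 replicate 3 it was lower, by -1.21 on the log2 scale (adjusted p = 1.4e-05). Amph, Bin1 and Sh3gl2, which bend membrane at the neck of the vesicle, were not called. Bin1 was at 59.6, 56.8 and 105 CPM at T0 and between 63.0 and 81.7 CPM later, and Sh3gl2 was between 6.77 and 10.6 CPM in the 12 libraries. Without T0 replicate 3 Bin1 was higher by 0.49 at T3 (adjusted p = 0.038). Amph was at 99.1, 100 and 43.5 CPM at T0 and between 66.5 and 89.7 CPM later. Without T0 replicate 3 it was lower by -0.37 at T1 (adjusted p = 0.0032).

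The members that encode vesicular glutamate transporters were near or at 0. Slc17a6 had 0 reads in the 12 libraries and Slc17a7 at most 5 in a library. Among vesicular transporters outside the members, Slc17a8, which also loads glutamate, rose at T2 to between 1.91 and 3.09 CPM. At T0 it was at 0.750, 1.26 and 0.141 CPM (log2 fold change 1.78, SE 0.54, adjusted p = 0.027). Slc32a1, which loads GABA, was at 0 in 11 libraries and at 0.0837 CPM in T3 replicate 1.

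The step from medium D1 to medium B changed few members. At T2, 4 of 35 members were higher than at T1 and 0 lower, where 0.573% of all genes were higher and 0.0565% lower. Sv2c was lower at an unadjusted p under 0.05. DESeq2 called 6 of 41 members higher and Sv2c lower, where it called 234 higher and 70 lower of 17473 genes fitted. The 4 were Rph3a (log2 fold change 4.48, SE 0.41, adjusted p = 0.0027), Syp (1.08, SE 0.14, adjusted p = 0.011), Cplx1 (0.85, SE 0.10, adjusted p = 0.011) and Sv2a (0.93, SE 0.16, adjusted p = 0.04). Sv2a was at 9.71 to 12.2 CPM at T2. In the fit of all 12 libraries Rph3a alone was called (adjusted p = 0.007), with Syp at 0.078, Cplx1 at 0.23 and Sv2a at 0.38. Without T1 replicate 1 the count was 2, as Syp lost its call too, and Sv2a lost its own whichever of the 7 libraries was left out (adjusted p between 0.05 and 0.18). Same-numbered T1 and T2 libraries deviated together, and with the replicate number as a block Sv2a was not called (log2 fold change 0.98, adjusted p = 0.051) and Dnm3 was (0.95, adjusted p = 0.037), so that 4 were again higher.

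Between T2 and T3, 2 of 36 members rose and 2 fell, where 0.5% of all genes were higher and 0.691% lower. Rab3c rose (log2 fold change 1.75, SE 0.32, adjusted p = 0.049), as did Rph3a (1.56, SE 0.26, adjusted p = 0.044). Cplx2 fell, as given above, and Sv2c fell by 2.10 on the log2 scale (SE 0.31, adjusted p = 0.032). These calls are close to the threshold. When any single T2 library was left out none of the 4 was called, and with the replicate block or in a fit of all 12 libraries 0 members were higher and 0 lower. Leaving out a T3 library left a lone library at T3, and the log2 fold change of Rab3c was 1.05 without T3 replicate 1. T3 replicate 4 was below replicate 1 for 33 of the 40 members with more than 3 reads in either.

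Per length, in the FPKM table, Syt11 and Vamp2 ranked 1 and 2 among the 42 members in each group, at 268 FPKM (SD 96.2, n = 3) and 37.3 FPKM (SD 8.07, n = 3) at T0. Cplx1 moved from rank 25 at T0 (1.32 FPKM, SD 0.526, n = 3) to rank 11 at T1, rank 9 at T2 and rank 6 at T3. Snap91 moved from rank 24 to 9, Rph3a from 38 to 20 and Dnm3 from 27 to 13, while Sv2c moved from 10 to 30. Rims1 was left out of this reading, since its FPKM per CPM varied from 0.191 to 2.20 between libraries.

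Several members have a relative that is used in most cell types, and reads of the pair were compared within each library, where scaling plays no part. For each read of Picalm, the widely expressed relative of Snap91, there were 0.00717 to 0.0291 reads of Snap91 at T0, 0.184 to 0.256 at T1 and 0.277 to 0.343 at T2. Picalm itself was lower at T1 (log2 fold change -0.44, SE 0.13, adjusted p = 0.038) and T2 (-0.53, SE 0.11, adjusted p = 0.0053). For each read of Synj2 there were 0.920 to 2.00 reads of Synj1 at T0, 12.7 to 15.2 at T1, and 8.73 and 20.4 at T3. Synj2 went from 46.0, 43.5 and 58.0 CPM at T0 to 11.1, 12.3 and 10.6 CPM at T1 (log2 fold change -2.12, SE 0.16, adjusted p = 0.00051).

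In 7 other pairs the relative was not called in either direction, and 2 of them overlapped with T0 at T1. Reads of Erc2 per read of Erc1 were 0.0749 to 0.0858 at T0 and 0.184 to 0.313 at T1. Those of Vamp2 per read of Vamp3 were 0.390 to 0.906 at T0 and 1.32 to 1.52 at T1, with 1.22 and 0.781 in T3 replicates 1 and 4, so that the last lay within the T0 range. Those of Dnm3 per read of Dnm2 were 0.0058 to 0.0383 at T0 and 0.121 to 0.185 at T2. Reads of Ppfia2 per read of Ppfia1 were 0.00219 to 0.0102 at T0 and 0.0511 to 0.0985 at T1. Napb per read of Napa overlapped, with 0.0525 to 0.137 at T0, 0.131 to 0.202 at T1 and 0.0908 in T3 replicate 4. Syp per read of Sypl overlapped at T1 (0.0828 to 0.116, against 0.0662 to 0.0926 at T0) and not at T2 (0.187 to 0.245). Snap23, the widely used relative of Snap25, stayed between 30.7 and 39.8 CPM in the 12 libraries, so that Snap25 had at most 0.087 reads for each of its reads.

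**Figure D4:**
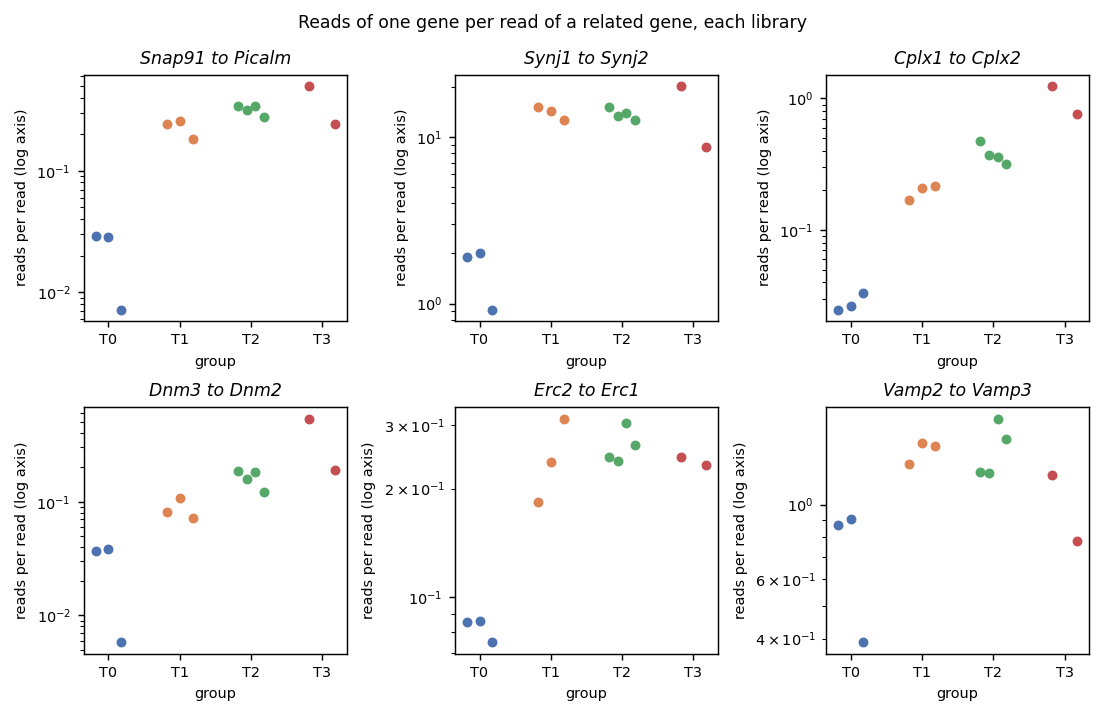
Reads of a release gene per read of a related gene in each library (points, log axis) for 6 of the 10 pairs compared, chosen after their values were seen. For these 6 the T1 and T2 libraries lie above the T0 libraries, T3 replicate 4 lies within the T0 range for Vamp2 to Vamp3, and Cplx1 to Cplx2 exceeds 1 in 1 library, T3 replicate 1.

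Other genes of the release pathway were counted from lists of 106 genes in all. Of the 18 subunits and accessory proteins of the vesicular proton pump, which acidifies vesicles and also lysosomes, 17 were tested, and 13 were higher at T1, 14 at T2 and 0 at T3, against 15.1%, 21.4% and 3.31% of all genes tested. Their medians were 0.44, 0.43 and 0.43 on the log2 scale. Atp6v1g2, the brain form of a stalk subunit, rose from 4.58, 3.56 and 1.2 CPM at T0 to 9.05, 10.8 and 11.3 CPM at T1 (log2 fold change 1.74, SE 0.43, adjusted p = 0.024). Atp6v0d1 went from 125, 113 and 98.9 CPM to 210, 195 and 229 CPM (0.91, SE 0.13, adjusted p = 0.003).

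Of 40 other neuronal release genes, 9 were higher of 24 tested at T1, 11 of 26 at T2 and, at T3, 3 of 26, beside the same 15.1%, 21.4% and 3.31% of all genes, with 0 lower by edgeR. At an unadjusted p under 0.05, Syngr1 was the sole one lower, at T1. Syt9, another calcium sensor, had at most 2 reads at T0 and was at 5.86 and 5.81 CPM at T3, at least 27.1-fold higher than 3 reads a library would give (adjusted p = 0.02). Apba1, a Mint adaptor that binds Munc18, went from 3.08, 2.51 and 0.212 CPM at T0 to 22.2, 30.1 and 20.5 CPM at T1 (log2 fold change 3.65, SE 0.65, adjusted p = 0.0074). Lin7a, which joins the same complex, went from 2.18, 2.16 and 2.82 CPM to 11.1, 10.2 and 9.82 CPM (2.11, SE 0.21, adjusted p = 0.00091).

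Of 32 widely expressed relatives, 3 of 28 tested were higher and 3 lower at T1, 5 higher and 4 lower at T2, and 1 higher and 1 lower at T3, with medians of 0.01, 0.04 and 0.01. At T1 and T2 these shares lie below those of all genes tested (15.1% higher and 16.8% lower at T1, 21.4% and 21.8% at T2). Sh3gl3, an endophilin, rose at T2 from 7.35, 4.74 and 7.12 CPM to between 15.3 and 19.8 CPM (log2 fold change 1.48, SE 0.21, adjusted p = 0.00092). Of 11 genes of the clathrin and AP-2 coat 3 were higher at T1 and at T2 (27.3%, against 15.1% and 21.4% of all genes) and 1 at T3. Cltb, the clathrin light chain b, was higher in all 3, from 37.4, 37.6 and 38.4 CPM at T0 to 64.4, 68.7 and 65.7 CPM at T1 (0.81, SE 0.10, adjusted p = 0.0021).

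Among markers of the cell types the cultures could hold, the summed neuron markers rose with these genes and those of proliferating cells fell. The part of cell types in the results was not tested. The 10 neuron markers summed to 902 to 969 CPM at T0, 2039 to 2583 at T1, 2002 to 2554 at T2, and 2716 and 1686 in T3 replicates 1 and 4. Of these, 3 of 5 tested were higher and 1 lower at T1, 5 of 7 higher at T2 and 2 of 7 at T3. Over all genes tested, 15.1%, 21.4% and 3.31% were higher, and 16.8% were lower at T1. Dcx, a protein of young migrating neurons, was at 1.76 to 8.18 CPM at T0 and at 201 to 246 CPM at T1, while Nefm had 0 reads and Stmn2, an axon marker, at most 0.108 CPM. Of 8 GABAergic markers, Gad1 rose to 23.9 CPM or more in each later library from at most 4.05 CPM at T0, and Gad2, Dlx5 and Dlx6 were at or near 0 (at most 0.108 CPM). Of these 8 markers 2 had enough reads to be tested, and Gad1 was the one called. The other had a negative log2 fold change against T0 at T1, T2 and T3. It lay below T0 without overlap at T2 and T3.

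The 8 markers of proliferating cells were lower at T1 and T2 (8 of 8 in each, against 16.8% and 21.8% of all genes). At T3 1 of 8 was lower than at T0, against 1.41%. From T2 to T3 0 were called, though all 8 lay above T2 without overlap, against 13.6% of all genes. They summed to 1657 to 2777 CPM at T0, 96 to 239 at T1, 143 to 303 at T2, and 504 and 964 in T3 replicates 1 and 4. T3 replicate 4 thus had the lower sum of neuron markers, of release genes and the higher sum of proliferation markers. T0 replicate 3 had the highest sum of proliferation markers and the lowest of release genes. In it 13.3% of unique alignments fell outside genes, against 19.6% and 19.9% in T0 replicates 1 and 2. Its share of non-unique alignments was 39.0%, against 34.0% and 34.6%. Why this library differed was not tested. The sums were 3184 to 3621 CPM at T0 and 5013 and 5961 at T3 for 9 markers of the oligodendrocyte lineage, 2782 to 4538 at T0 and 2590 and 2893 at T3 for 8 astrocyte markers, and 4944 to 7406 in the 12 libraries for 6 progenitor markers. Of the oligodendrocyte markers tested, 1 of 6, 3 of 7 and 0 of 7 were higher at T1, T2 and T3. The shares of all genes were 15.1%, 21.4% and 3.31%. At T2, 2 of 8 astrocyte markers and 1 of 5 progenitor markers tested were lower, against 21.8% of all genes. The 5 microglia markers summed to at most 0.382 CPM. The 5 markers of glutamatergic neurons summed to at most 4.49 CPM up to T2 and to 7.04 and 9.15 CPM at T3.

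**Figure D5:**
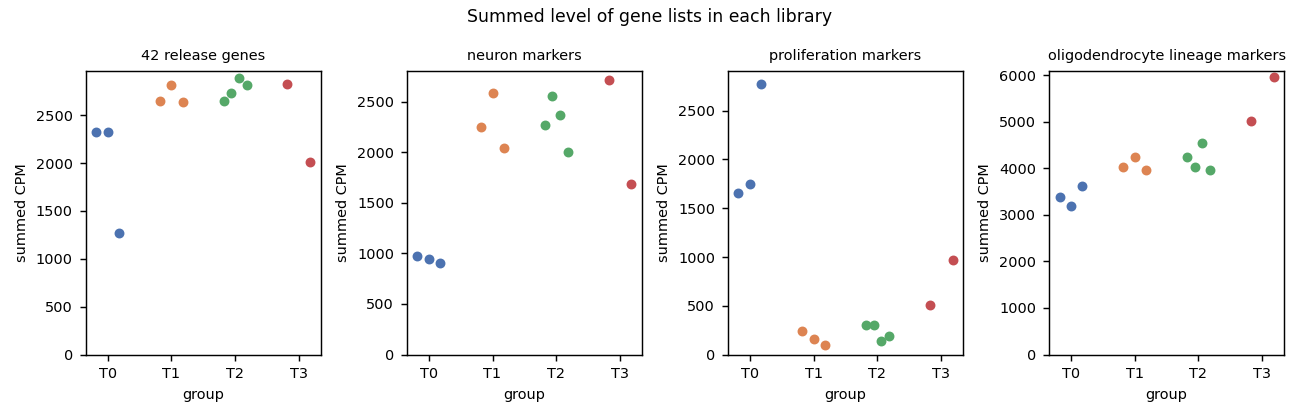
Summed CPM in each library (points) of the 42 release genes and of markers of neurons, proliferating cells and the oligodendrocyte lineage, on axes that start at 0. Release genes and neuron markers are higher in T3 replicate 1 than in replicate 4, and proliferation markers are lower.

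Many neuronal genes carry a sequence called RE1, which the repressor REST binds in cells that are not neurons, so its letters were searched near the members' starts. The search took TTCAGCACC, any 2 bases and GGACAGC, on both strands, with up to 2 of these 16 letters mismatched, within 2500 bases of each gene's annotated start on NCBIM37 (mm9). A site was found for 6 of the 42 members (14.3%) and for 291 of all 22225 protein-coding gene names (1.31%). Members with a site were Snap25, Syn1, Syp, Rph3a, Slc17a6 and Syt4. The runs below, with matched letters in capitals, show how the members differ.
Snap25, intron, 893 bases downstream of the start, chr2:136540070-136540095, plus strand: acctTTCAGCACCgcGGACAGCgatc
Rph3a, 104 bases upstream, chr5:121459619-121459644, plus strand: ggcagTCAGtACCacGGACAGCacca
Syn1, 137 bases upstream, chrX:20498255-20498280, minus strand: cggaTTCAGCACCgcGGtCAGagcct
Syp, coding exon, 274 bases downstream, chrX:7215859-7215884, plus strand: gcgcTcCAGCACCgtGGACAGagccc
Snap25 matched all 16 letters and held a second site with 14 matches 843 bases downstream of the start. Rph3a, Syn1 and Syp each matched 14. The 6 genes did not share a course: Snap25, Rph3a and Syp were called higher at T2, Syn1 was not called, and Slc17a6 and Syt4 stayed at or near 0. Rest itself was between 22.6 and 48.1 CPM in the 12 libraries and was not called in any comparison. A match of letters is a description and does not show binding.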

How the data were processed

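RNA was sequenced from 12 libraries of ANS cells, and each was mapped to T0, T1, T2 or T3 from its label. The authors aligned reads to mm9 with TopHat2 2.0.6 and Bowtie 0.12.7.0 and, per the submitters' processing notes, HTSeq 0.6.0 was used. They deposited raw counts per gene and library. The strand setting is not given in the sources used here, so reads of overlapping genes on opposite strands cannot be told apart. The 5 entries that name no gene held 43.1% to 48.1% of all entries and were left out. The authors also deposited an FPKM table (fragments per kilobase of transcript, scaled to library size), made with a tool not given in the sources used here. It was used for levels between genes, and 0 columns were unmapped. The name of the FPKM column taken as T3 replicate 4 also holds a 2, so its replicate number is uncertain.

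Depth ran from 8910724 to 16631614 counts on genes, which limits genes of a few reads to counting error alone. Groups of 2 to 4 libraries limit the rest. A group in which no library had more than 3 counts of a gene was taken as the floor for that gene.

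Pairwise fits used edgeR 4.0.16 in R 4.3.3 (TMM, filterByExpr, quasi-likelihood test, Benjamini-Hochberg over all genes tested, threshold 0.05), for T1, T2 and T3 against T0, T2 against T1, and T3 against T2. The script was tested on simulated data. DESeq2 1.42.0, other normalizations and filters, a fit of all libraries, single libraries left out and a replicate block were tried as alternatives. A further fit, without the block on the libraries of the block, was added after the data were seen. For T2 against T1 same-numbered libraries deviated together (correlation 0.134, 0.289 and 0.27). For T1 against T0 the correlations were weaker (-0.0179, 0.121 and 0.0655), and for replicates 2 and 3 alone they exceeded those with libraries of another number. For T2 against T0 (-0.123 to -0.0135) same-numbered libraries did not deviate together.

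Members and lists were chosen with earlier results of these data known. The text names each member, the relatives of members, markers, and from each pathway list up to 4 called genes with the largest change. Members under 1 CPM in each group are given by their range. RE1-like letters were searched on NCBIM37 with GENCODE vM1 starts, where all 42 members overlapped their position in the FPKM table.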

Additional observations from a re-analysis of the deposited data

Results flagged for a closer look

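Of the 38 members with more than 3 reads in a T2 library, 2 had a library set apart from the other 3 by Dixon's criterion at its 95% critical value. Chance alone sets apart about 1 in 20 groups. Rph3a was at 13.8 CPM in T2 replicate 2 and between 8.31 and 9.22 CPM in the others. Bsn was at 32.3 CPM in the same library and between 20.2 and 22.1 CPM in the others.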

How the results depend on the processing

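The 53 member changes called in the 5 comparisons were refitted 715 times. All 715 kept their direction and 585 stayed past the threshold. With RLE size factors 1 member was lower at T3 than at T0, and with library totals alone no count of members moved by over 1.5 times. Requiring 10 counts in each library left fewer members to test and gave 9, 12 and 3 higher against T0 at T1, T2 and T3, and 1 from T2 to T3. DESeq2 gave 1 lower at T1, T2 and T3 against T0 and 1 from T1 to T2, and 5 higher from T2 to T3. Without the low-count filter 1 was lower at T2 and T3 against T0 and 1 from T1 to T2, and 5 were higher from T2 to T3. Over all genes from T2 to T3, DESeq2 called 430 higher, and the fit without the filter 423, against 63 in the main fit. One fit of the 12 libraries gave 18 higher and 1 lower at T3 against T0, and 1 lower at T1. It gave 1 higher from T1 to T2, and 0 higher and 0 lower from T2 to T3. Over all genes this fit called 2000 higher and 1865 lower at T3 against T0, where the pairwise fit called 421 and 179. The causes were not tested. Without single libraries, members higher ranged from 6 to 20 at T1 and 19 to 23 at T2 against T0, and 2 to 4 from T1 to T2. Members lower ranged from 0 to 3, 0 to 3 and 0 to 1. Over all genes the higher calls ranged from 810 to 3162 at T1, 2007 to 3391 at T2 and 9 to 59 from T1 to T2. Fits without a T3 library left a lone library at T3, which is then assumed to vary like T0 or T2.

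With the replicate block, 14 members were higher at T1 and 16 at T2 against T0, 4 from T1 to T2, and 0 higher and 0 lower from T2 to T3. The same libraries without the block gave 15, 19, 3, and 0 higher and 0 lower. Over all genes the block gave 162 higher and 47 lower from T1 to T2, against 33 and 0 in the same libraries without it. No paired analysis was possible for T3 against T0 because they share 1 number. Of the 10 highest members per length, between 8 (T2) and 10 (T0) were also among the 10 highest by CPM.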
